A study of Homo sapiens with 6 samples.

Results

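Voltage-gated sodium, calcium and potassium channel genes, with their accessory subunits and the inward rectifier, two-pore and hyperpolarization-activated (HCN) channels, were followed on 6 Affymetrix oligonucleotide arrays of SH-SY5Y cells. SH-SY5Y is an established human neuroblastoma line of neuronal character. The members are the symbols that begin with SCN and end in a number plus A or B, those that begin with CACNA, CACNB, CACNG or KCN, and those that are HCN with a number. A symbol was kept where a probe set, the group of probes that reports 1 transcript, carried it alone, and each gene was read on its probe set of the highest mean. The rule found 99 members of the 11963 genes named on the array, with 11 in the sodium class, 21 in the calcium class, 63 in the potassium class and 2 HCN genes. The other 2, KCNQ1DN and KCNQ1OT1, are non-coding transcripts of the KCNQ1 locus, which match the letters of the rule but encode no channel.

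Cells of 3 replicates were exposed for 1 h to unconjugated bilirubin at a free concentration of 140 nM (Bf 140 nM), and cells of 3 replicates to the solvent alone (DMSO 0.6%). Bilirubin was added in DMSO, so both groups received the solvent, and all cells came from the same line. The methods describe the replicates as biological and the flasks as separate for each treatment. Levels are given as the deposited log2 values, on which 1 unit is a 2-fold difference, and mostly relative to the median of the array, which lay between 7.73 and 7.97.

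Voltage-gated channels open a selective pore when the membrane potential changes. Sodium channels carry the rapid upstroke of the action potential, calcium channels turn depolarization into calcium entry that drives secretion and transcription, and potassium channels bring the membrane back to rest. The pore is formed by an alpha subunit (alpha1 in calcium channels), while beta, alpha2delta and gamma subunits and the KCNAB, KCNE, KCNIP and KCNMB proteins set its trafficking and gating. Inward rectifiers (KCNJ) and two-pore channels (KCNK) lack a classical voltage sensor and hold the resting potential, and HCN channels carry a mixed cation current at negative potentials. Neuroblastoma cells are excitable, and SH-SY5Y is widely used as a model for native channels of this kind.

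The arrays carried the neuronal and noradrenergic character of the line. All 7 neuronal markers and 8 of the 10 noradrenergic markers found were at least 1 log2 above the median on each array, the exceptions being TH, the rate-limiting enzyme of catecholamine synthesis, at -1.39, and HAND2, a lineage transcription factor, at -0.01 from the median. None of the 3 Schwann or glial, 3 immune, 3 endothelial, 4 muscle or 4 epithelial markers found reached that level, while 3 of 7 mesenchymal markers did (COL3A1, FN1 and THY1). Both replicate 3 arrays stood apart. Their correlation with the other 4 arrays over all probe sets was between 0.961 and 0.977, against at least 0.993 among those 4, and 0.995 with each other. On these arrays the actin control also read brighter at its 3' than at its 5' end, by 1.49 in Bf 140 nM and 1.90 in DMSO 0.6%, against between 0.10 and 0.50 on the other 4. Each group holds one such array, and results that rest on them are given with and without them.

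Promoter sequences from RefSeq (GRCh38.p14) were found for 76 of the 99 members and are shown for 4 genes that differ in brightness and in CG dinucleotides, the sites of CpG methylation. Each window runs from 250 bases before to 50 bases after the annotated start, 5' to 3' on the strand of the gene, with CG in capitals. KCNH2 (chr7:150978272-150978571, minus strand, 39 CG) and CACNA2D2 (chr3:50504195-50504494, minus strand, 5 CG) are the brightest members with an entry. CACNA1D (chr3:53494361-53494660, plus strand, 56 CG) and SCN7A (chr2:166486922-166487221, minus strand, 0 CG) have the most and the fewest CG of all matched members, and both were dimmer than the array median.
KCNH2: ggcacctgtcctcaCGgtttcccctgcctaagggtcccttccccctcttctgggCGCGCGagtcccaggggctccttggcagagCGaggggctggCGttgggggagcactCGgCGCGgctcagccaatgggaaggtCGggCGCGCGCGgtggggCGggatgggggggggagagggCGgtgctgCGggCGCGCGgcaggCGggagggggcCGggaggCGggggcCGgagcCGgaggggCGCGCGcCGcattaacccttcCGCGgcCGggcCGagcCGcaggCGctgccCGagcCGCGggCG
CACNA2D2: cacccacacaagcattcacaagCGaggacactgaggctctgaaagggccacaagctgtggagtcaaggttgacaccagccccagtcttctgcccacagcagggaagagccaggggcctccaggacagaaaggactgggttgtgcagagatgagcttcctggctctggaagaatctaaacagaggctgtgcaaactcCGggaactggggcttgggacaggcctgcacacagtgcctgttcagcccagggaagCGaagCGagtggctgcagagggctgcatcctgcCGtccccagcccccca
CACNA1D: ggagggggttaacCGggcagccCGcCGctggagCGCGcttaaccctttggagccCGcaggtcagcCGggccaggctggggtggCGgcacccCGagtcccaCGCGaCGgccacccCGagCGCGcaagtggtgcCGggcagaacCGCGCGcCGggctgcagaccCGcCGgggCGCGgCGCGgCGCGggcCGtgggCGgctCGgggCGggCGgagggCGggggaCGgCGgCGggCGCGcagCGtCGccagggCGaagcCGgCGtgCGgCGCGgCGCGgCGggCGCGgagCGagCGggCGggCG
SCN7A: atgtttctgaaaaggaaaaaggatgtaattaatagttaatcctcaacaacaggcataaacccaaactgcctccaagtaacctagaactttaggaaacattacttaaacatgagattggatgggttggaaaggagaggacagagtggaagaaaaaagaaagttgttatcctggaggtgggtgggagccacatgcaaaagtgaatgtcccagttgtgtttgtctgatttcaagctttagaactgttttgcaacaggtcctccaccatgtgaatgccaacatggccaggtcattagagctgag

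The 4 windows pair a CG-rich with a CG-poor promoter, once among the brightest members and once among members below the array median, where CACNA1D lay at -0.82, close to the median member, and SCN7A at -2.07. Over the 76 matched members the median was 19 CG in 300 bases, against 24 over the 9563 matched genes of the array. The 8 matched members above the array median had a median of 23.5 CG and the 68 at or below it 19 CG. Split in the same way, all genes had a median of 27 CG above the array median and 13 CG at or below it. The letters TATAAA, read on both strands, stood in 5 of the 76 windows (6.58%), against 8.30% of all windows.

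**Figure D1:**
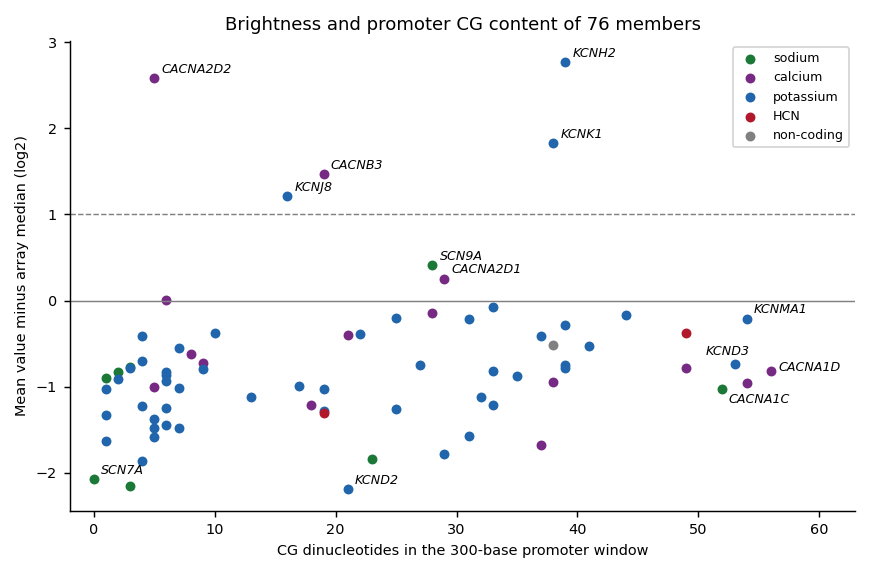
CG dinucleotides in the 300-base promoter window (x axis) against the mean level over 6 arrays minus the array median (y axis, log2) for the 76 members with a RefSeq promoter entry, coloured by class; the solid line is the array median and the dashed line 1 log2 above it. KCNH2 with 39 CG and CACNA2D2 with 5 CG lie at the top, and CACNA1D with 56 CG lies below the median.

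Most channel genes were dim. Only 5 of the 99 members (5.05%) lay at least 1 log2 above the array median on each of the 6 arrays, called well above here, against 36.5% of all genes. These 5 were CACNG4, KCNH2, CACNA2D2, KCNK1 and CACNB3, so 3 were of the calcium class, 2 of the potassium class and 0 of the 11 sodium genes. A further 7 members, SCN3A, KCNJ8, SCN3B, KCNQ1, SCN9A, CACNA2D1 and CACNA1I, had a mean above the median without reaching that level on every array. In all, 12 members (12.1%) were above the median, against 57.4% of all genes, and 87 (87.9%) were at or below it, against 42.6%. The median member lay at -0.83 from the array median, while the median over all genes was 0.46. SCN3A, at 0.82 on its dimmest array, was the member just outside the limit and CACNB3 and KCNK1, at 1.29 and 1.13, were those just inside. Brightness depends on the probes as well as on the RNA, so no gene was tested against another, and a dim probe set is no evidence that a transcript is missing. In these bulk samples, fewer cells with a transcript and less of it in each cell cannot be told apart.

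**Figure D2:**
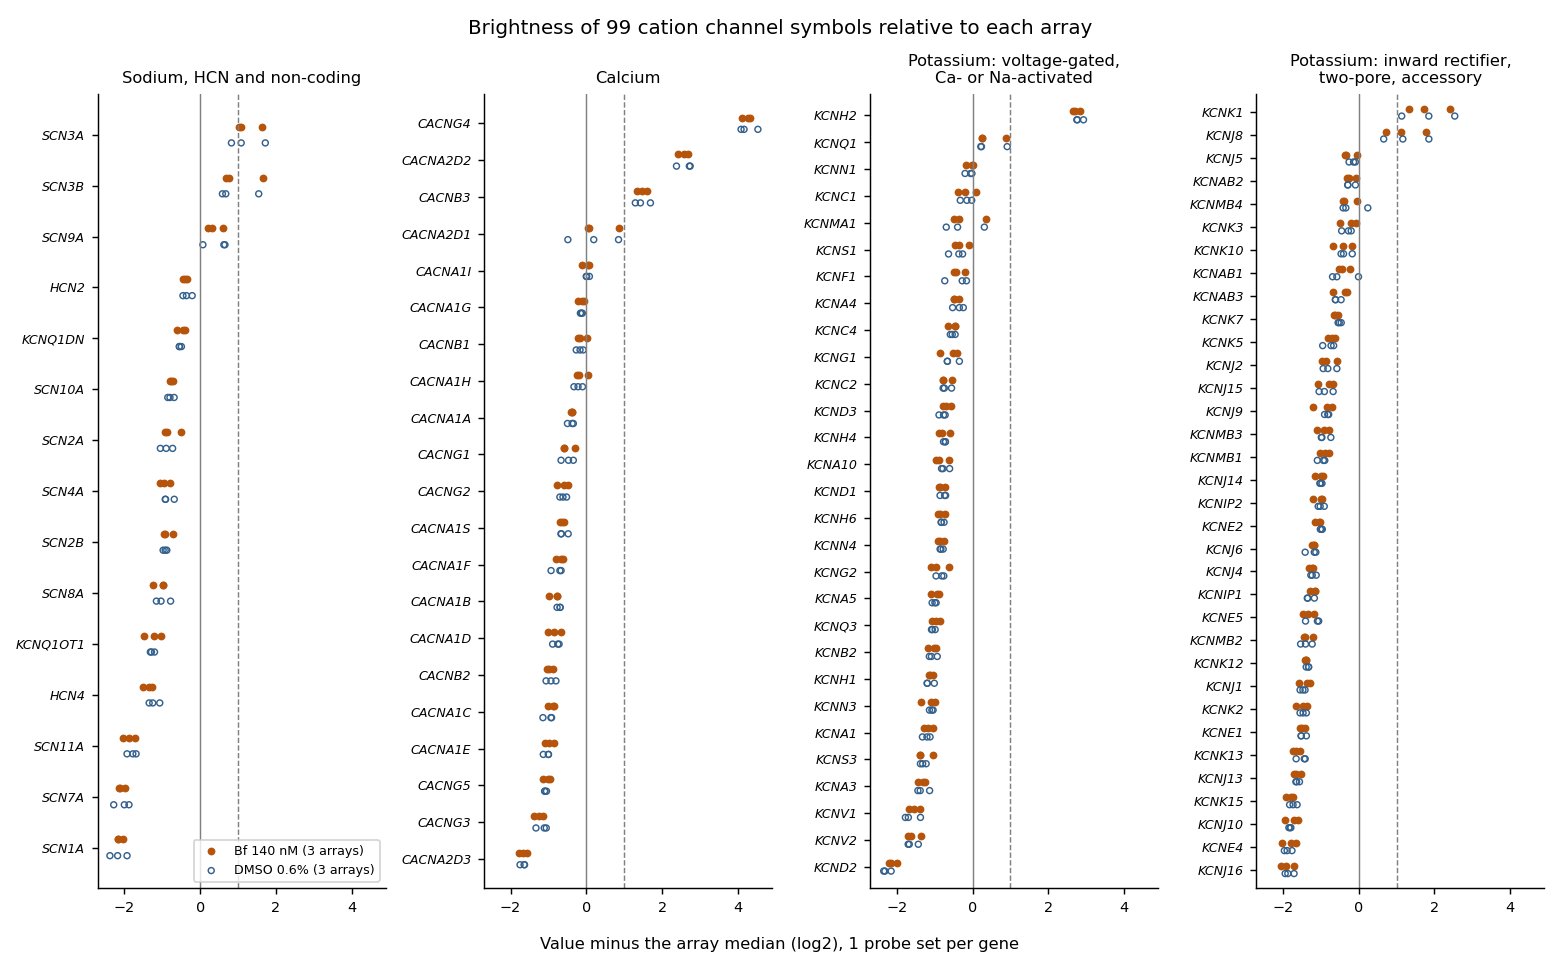
Level of each of the 99 members on each array, as the deposited log2 value minus the median of that array (x axis, log2), with filled points for the 3 Bf 140 nM arrays and open points for the 3 DMSO 0.6% arrays; the solid line is the array median and the dashed line 1 log2 above it. In total 12 members have a mean to the right of the solid line, and the points of both groups lie over each other in nearly every row.

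Among the sodium channel alpha subunits, SCN3A and SCN9A were the members above the array median, and the other 7 of the 9 lay between -0.77 and -2.15 from it. SCN3A (chromosome 2), the alpha subunit best known from embryonic brain, had values of 8.99, 9.01 and 9.40 in Bf 140 nM replicates 1, 2 and 3, and 8.77, 9.03 and 9.44 in DMSO 0.6% replicates 1, 2 and 3. SCN9A (chromosome 2), the alpha subunit of pain-sensing and sympathetic neurons, read 8.18, 8.53 and 8.08 in Bf 140 nM, against 8.02, 8.57 and 8.38 in DMSO 0.6%. The groups overlapped for both genes, and SCN3A was highest on the replicate 3 array of each group. SCN1A, SCN2A and SCN8A, the main alpha subunits of mature brain, were dim at -2.15, -0.83 and -1.03 from the median, and so were SCN7A (-2.07), SCN10A (-0.77) and SCN11A (-1.84), which are known from peripheral and sensory neurons. SCN3B (chromosome 11), a beta subunit that associates with the pore in the membrane, was measured at 8.72, 8.62 and 9.42 in Bf 140 nM and at 8.54, 8.62 and 9.27 in DMSO 0.6%. Its replicate 3 array was again the highest of each group. The other beta subunit on the array, SCN2B, lay at -0.90.

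In the calcium class the bright members were auxiliary subunits. None of the 10 alpha1 pore subunits was well above the median. The 3 brightest of them were the T-type (low-voltage activated) subunits CACNA1I at 0.01, CACNA1G at -0.13 and CACNA1H at -0.17 from the median, followed by the P/Q-type CACNA1A at -0.40. This order depends on the probe set read. Other probe sets of CACNA1I lay at -0.60 and -1.08, and those of CACNA1G between -0.48 and -2.13. The N-type CACNA1B lay at -0.78, the L-type CACNA1D and CACNA1C at -0.82 and -0.96, and the R-type CACNA1E at -1.01, so all 10 lay between 0.01 and -1.01. CACNA1I (chromosome 22) read 7.85, 8.0 and 7.81 in Bf 140 nM, against 7.95, 8.03 and 7.74 in DMSO 0.6%, with overlapping groups.

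CACNG4 (chromosome 17), a gamma subunit that also serves as an auxiliary protein of AMPA receptors, was the brightest member. It read 12.28, 12.04 and 12.04 in Bf 140 nM, against 12.48, 12.03 and 11.89 in DMSO 0.6%, or 4.24 above the median on average. The other 4 gamma subunits lay between -0.49 (CACNG1, the skeletal muscle form) and -1.21 (CACNG3). CACNA2D2 (chromosome 3), an alpha2delta subunit that brings the pore to the cell surface, gave 10.65, 10.34 and 10.36 in Bf 140 nM and 10.67, 10.32 and 10.47 in DMSO 0.6%. In both groups its replicate 1 array was the brightest. Its relative CACNA2D1 (chromosome 7), a target of gabapentin, was far more variable, at 8.82, 8.02 and 7.82 in Bf 140 nM and 8.80, 8.14 and 7.24 in DMSO 0.6%. The values of both groups were ordered alike, with replicate 1 the highest and replicate 3 the lowest. CACNA2D3 lay at -1.67. CACNB3 (chromosome 12), a cytoplasmic beta subunit, read 9.45, 9.27 and 9.38 in Bf 140 nM, against 9.38, 9.24 and 9.42 in DMSO 0.6%, while CACNB1 and CACNB2 lay at -0.15 and -0.95.

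In the potassium class 59 of 63 members were at or below the median, against 16 of 21 in the calcium class and 8 of 11 in the sodium class. KCNH2 (chromosome 7), the hERG channel that carries a repolarizing current in heart, was the brightest of the 25 voltage-gated alpha subunits. It read 10.62, 10.63 and 10.61 in Bf 140 nM, against 10.70, 10.71 and 10.66 in DMSO 0.6%. On the deposited values, though not relative to the array median, this was the narrowest spread of the 12 members above the median. KCNQ1 (chromosome 11), the slow delayed rectifier of heart and epithelia, gave 8.23, 8.20 and 8.65 in Bf 140 nM and 8.19, 8.16 and 8.64 in DMSO 0.6%. The other 23 voltage-gated alpha subunits lay between -0.17 (KCNC1) and -2.19 (KCND2, the dimmest of all members), and among them KCNQ3, a subunit of the neuronal M-current, was at -1.0. KCNK1 (chromosome 1), a weakly rectifying two-pore channel, differed widely among replicates, with 9.30, 9.66 and 10.18 in Bf 140 nM and 9.09, 9.80 and 10.26 in DMSO 0.6%. The other 8 two-pore genes lay between -0.28 (KCNK3) and -1.77 (KCNK15). KCNJ8 (chromosome 12), the pore of a potassium channel gated by ATP, read 9.09, 8.65 and 9.55 in Bf 140 nM, against 9.12, 8.61 and 9.58 in DMSO 0.6%. Its order over the replicates was the same in both groups, and the other 11 inward rectifiers lay between -0.20 (KCNJ5) and -1.86 (KCNJ16).

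None of the 13 accessory potassium channel genes exceeded the median, the brightest being KCNAB2 and KCNMB4, both at -0.22. The same held for the 4 calcium-activated genes on the array, of which KCNN1 lay at -0.08 and KCNMA1, the large-conductance channel, at -0.21. HCN2 and HCN4, pacemaker channels of brain and heart, lay at -0.37 and -1.30. KCNQ1DN and KCNQ1OT1 lay at -0.51 and -1.26.

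**Figure D3:**
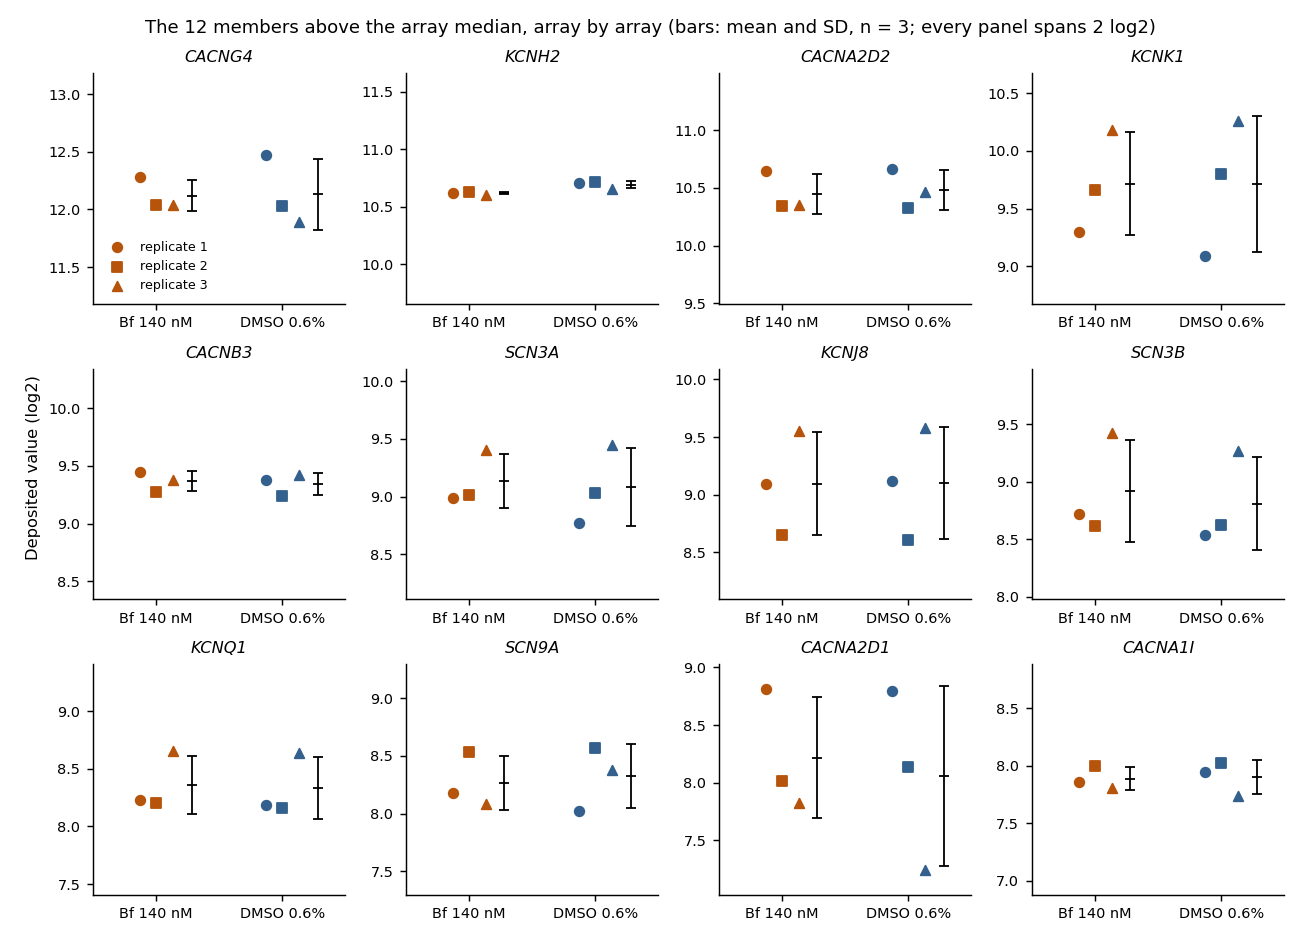
Deposited log2 values (y axis, each panel spanning 2 log2) of the 12 members above the array median, with Bf 140 nM left of DMSO 0.6%, a symbol for each replicate number and a bar for the mean and SD of 3 arrays. The groups overlap in each panel but that of KCNH2, and in KCNK1, SCN3A, KCNJ8, SCN3B and KCNQ1 the replicate 3 array is the highest of each group.

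Other cation channel genes outside the rule were also mostly dim. Of 35 other cation channels listed, 26 were found, 0 were well above the median and 20 were at or below it, with a median level of -0.75. The brightest were ORAI2, a pore of store-operated calcium entry, at 1.13, and TPCN1, an endolysosomal channel, at 0.60. Of 26 partners of voltage-gated channels listed, 18 were found and 5 were well above the median. These 5 were the scaffold proteins AKAP9 (2.26), DLG1 (2.14), ANK2 (2.02) and CASK (1.69) and the calcium channel adaptor STAC (2.18), while ANK3, the ankyrin of the axon initial segment, lay at -0.49. Of REST and its corepressors, 4 of 5 were found, with HDAC2 at 3.90, HDAC1 at 2.76 and RCOR1 at 1.64, all well above the median, and REST at 0.37. No gene of these 3 lists and none of the marker lists passed the test between Bf 140 nM and DMSO 0.6% described next.

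The comparison of Bf 140 nM with DMSO 0.6% asked whether channel transcripts had moved after 1 h of bilirubin. No member passed limma at an adjusted p under 0.10, and neither did any other probe set, with 0% of the 22215 probe sets called higher and 0% called lower. The adjusted p was 1.00 for every member. At an unadjusted p under 0.05, limma gave 0 members in either direction, against 0.0585% of all genes higher and 0% lower. With the replicate number as a block it gave 0 members as well, against 0.627% of all genes higher and 0.201% lower. Differences ran from -0.14 (HCN4) to 0.18 (KCND2), and 57 were positive and 42 negative. The median difference was 0.02 over the members and 0.01 over all genes, and it was -0.00 over the members once the arrays had equal medians or were quantile normalized.

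The 95% intervals set the size that could have been seen. The median distance from the difference to either bound was 0.26, or 0.19 with the replicate block. The interval lay within a 2-fold change in either direction for 11614 of all 11963 genes and for 98 of the 99 members. The exception was CACNA2D1, with a difference of 0.16 (95% interval -0.91 to 1.23), which narrowed to -0.10 to 0.42 with the block. KCNK1 and KCNJ8 were also wide without the block, at -0.85 to 0.85 and -0.76 to 0.76, and much tighter with it, at -0.20 to 0.20 and -0.18 to 0.17. With the block all 99 intervals lay within a 1.5-fold change, as did those of 11953 of all 11963 genes. Since most members were dim, where the scale of the values compresses differences, a fold change of the RNA may be larger than the values give.

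Within replicate numbers, the difference was positive in all 3 pairs for 10 members (10.1%), against 11.1% of all genes, and negative in all 3 for 7 members (7.07%), against 5.17%. Both shares are near those of the array. The pairs did not move alike. The median over members was -0.03 in replicate 1, 0.01 in replicate 2 and 0.07 in replicate 3, and 34, 52 and 69 of the 99 members were positive in replicates 1, 2 and 3. Over all genes these medians were 0.03, -0.01 and 0.02, and 7047, 5657 and 6517 of 11963 genes were positive. The pairs were read on the deposited values, and in replicate 3 the bilirubin array had the higher array median, 7.78 against 7.73. Relative to the array median, the median member lay at -0.75 on both replicate 3 arrays. It lay lower with bilirubin in replicate 1 (-0.95 against -0.89) and replicate 2 (-0.85 against -0.82). The counts of positive members thus depend on the scale.

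On the deposited values, the 3 arrays of one group lay wholly above or below those of the other for 5 members. This too depends on the scale, since relative to the array median the groups overlapped for all 5. Values were higher in Bf 140 nM for 2 members (2.02%), CACNA1H and KCND2, against 1.81% of all genes, and lower for 3 (3.03%), HCN4, KCNH2 and SCN4A, against 0.577%. In each of these 5 the exact two-sided permutation p was 0.1, the smallest that 3 against 3 arrays can give.

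KCND2, a voltage-gated alpha subunit that carries the transient A-type current of dendrites, had the smallest p among positive differences. It read 5.82, 5.74 and 5.79 in Bf 140 nM, against 5.64, 5.60 and 5.58 in DMSO 0.6%. The difference was 0.18 (95% interval -0.01 to 0.36), with 0.18, 0.14 and 0.21 in replicates 1, 2 and 3, and 0.16 without the replicate 3 arrays. This was also the dimmest of the 99 members, so the filter at the median level left it out. Among the settings that kept it, its interval left 0 out only with trend and robust variance estimation (0.05 to 0.30). The limma adjusted p was still 1.00 there. CACNA1H, a T-type alpha1 subunit, gave 7.73, 7.75 and 7.82 in Bf 140 nM and 7.62, 7.73 and 7.62 in DMSO 0.6%. Its difference of 0.11 (95% interval -0.09 to 0.30) had pairs of 0.11, 0.02 and 0.19, and the lowest value in Bf 140 nM and the highest in DMSO 0.6% both round to 7.73, so the groups barely separated.

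HCN4, the principal pacemaker channel of the sinoatrial node, had the smallest p among negative differences. Its values were 6.45, 6.59 and 6.50 in Bf 140 nM and 6.60, 6.69 and 6.66 in DMSO 0.6%, a difference of -0.14 (95% interval -0.34 to 0.07). The pairs were -0.15, -0.10 and -0.15, of like size in each replicate. KCNH2, with the values given above, differed by -0.07 (95% interval -0.25 to 0.11), and by -0.08, -0.09 and -0.05 in the 3 pairs. Its second probe set gave -0.02, with 10.05, 10.10 and 10.28 in Bf 140 nM and 10.11, 10.20 and 10.17 in DMSO 0.6%, so the groups overlapped there. SCN4A, the skeletal muscle alpha subunit, read 6.92, 6.97 and 6.97 in Bf 140 nM, against 7.04, 7.02 and 7.04 in DMSO 0.6%, a difference of -0.08 (95% interval -0.26 to 0.10). For the other 15 genes among the 10 smallest p in each direction the groups overlapped and all intervals included 0. SCN2A (0.15), KCND3 (0.14), KCNS1 (0.13) and KCNAB3 (0.13) had the largest of these positive differences, and KCNE5 (-0.13), KCNK13 (-0.12) and CACNA1B (-0.10) the largest negative ones.

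**Figure D4:**
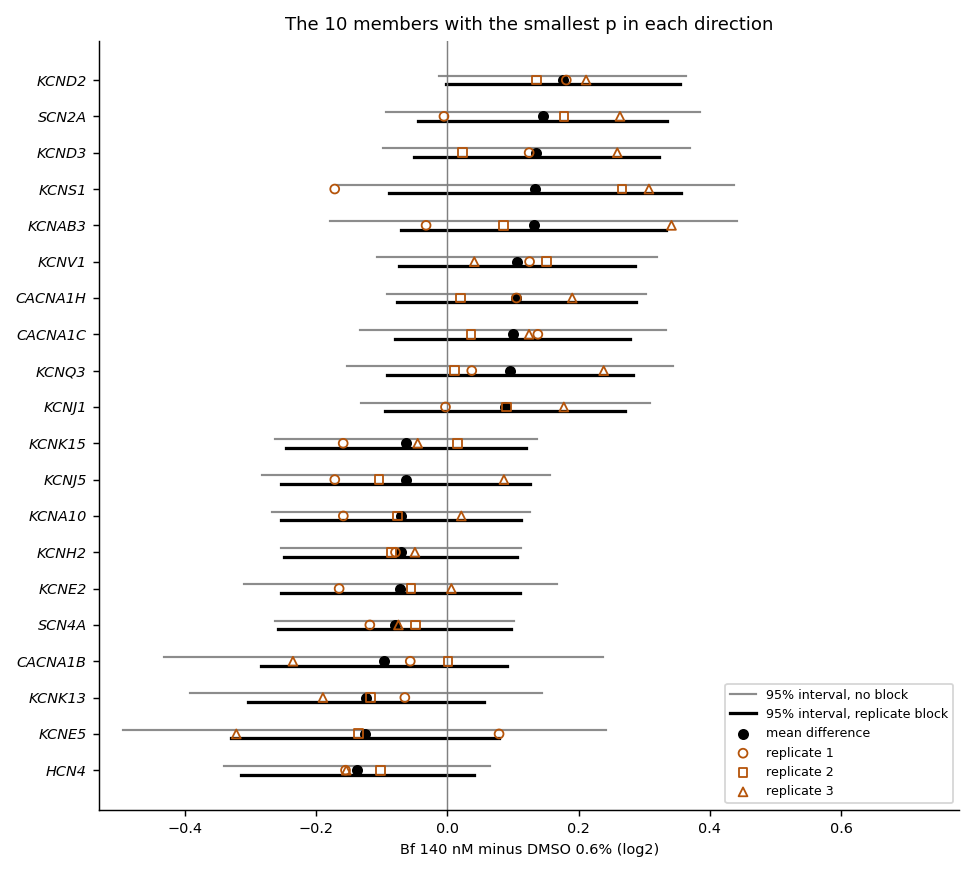
Bf 140 nM minus DMSO 0.6% (x axis, log2) for the 10 members with the smallest p in each direction, with filled points for the mean difference, open symbols for each replicate number and lines for the 95% interval without (grey) and with (black) the replicate block. KCND2 at 0.18 is at the top and HCN4 at -0.14 at the bottom, and all intervals cross 0.

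Some members differed far more between replicate numbers than any did between treatments. The largest differences were 0.96 relative to the array median (KCNK1) and 0.18 on the deposited values (KCND2). On the deposited values, KCNK1 read 10.18 and 10.26 on the replicate 3 arrays, against between 9.09 and 9.80 on the other 4. Relative to the array median, both replicate 3 arrays lay above the other 4 for 42 members (42.4%), against 46.9% of all genes, and below them for 4 members (4.04%), against 12.3%. These counts depend on the scale, because the medians of the replicate 3 arrays were the lowest of the 6. On the deposited values without that subtraction, 9 members (9.09%) lay above and 27 (27.3%) below, against 21.0% and 30.6% of all genes. KCNK1, SCN3B, KCNJ8, KCNMA1, SCN3A and KCNQ1 were above on both scales, and so were KCNMB4, KCNAB1 and KCNJ2, which were below the array median on average. Over both groups the first 6 exceeded replicates 1 and 2 by 0.96, 0.92, 0.90, 0.82, 0.67 and 0.65 relative to the median. KCNMB4, KCNAB1 and KCNJ2 did so by 0.49, 0.43 and 0.32. KCNMA1, the member of the first 6 that was not above the array median on average, read 7.48, 7.57 and 8.14 in Bf 140 nM and 7.26, 7.55 and 8.04 in DMSO 0.6%.

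CACNA2D1 went the other way, at -0.72. KCNF1, an electrically silent potassium channel subunit, followed at -0.34, with 7.52, 7.73 and 7.29 in Bf 140 nM and 7.79, 7.67 and 6.99 in DMSO 0.6%. CACNA1D and HCN2 had smaller differences of -0.20 and -0.12. Relative to the array median, only 7 members (7.07%) moved by over 0.5 between replicate 3 and the others, against 19.5% of all genes. Of these 7, 6 had a mean above the array median. This count too depends on the scale. The differences of replicate 3 within Bf 140 nM and within DMSO 0.6% had r = 0.775 over the 99 members, as a description over genes that share the same arrays, and 0.855 over all genes. Relative to the median, all genes were 0.15 higher on the replicate 3 arrays in the median gene, and 6 of the 11 gene lists had a higher mean level on both replicate 3 arrays than on the other 4, against 0 with a lower one. The 7 neuronal markers were at 4.43 and 4.68 on the replicate 3 arrays, against between 3.80 and 4.01 on the other 4, although TUBB3, a neuronal tubulin, differed by -0.55. The 10 noradrenergic markers were at 3.57 and 3.65 on average, against between 3.21 and 3.45, but they did not move together. GATA3 (0.84), ISL1 (0.89), CHGB (0.77), DDC (0.57) and CHGA (0.53) were higher on both replicate 3 arrays than on the other 4. PHOX2A (-0.41), HAND2 (-0.41) and GATA2 (-0.31) were lower on both, and TH and DBH were neither. The part of the markers and of the 3' to 5' signal in these differences was not tested.

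**Figure D5:**
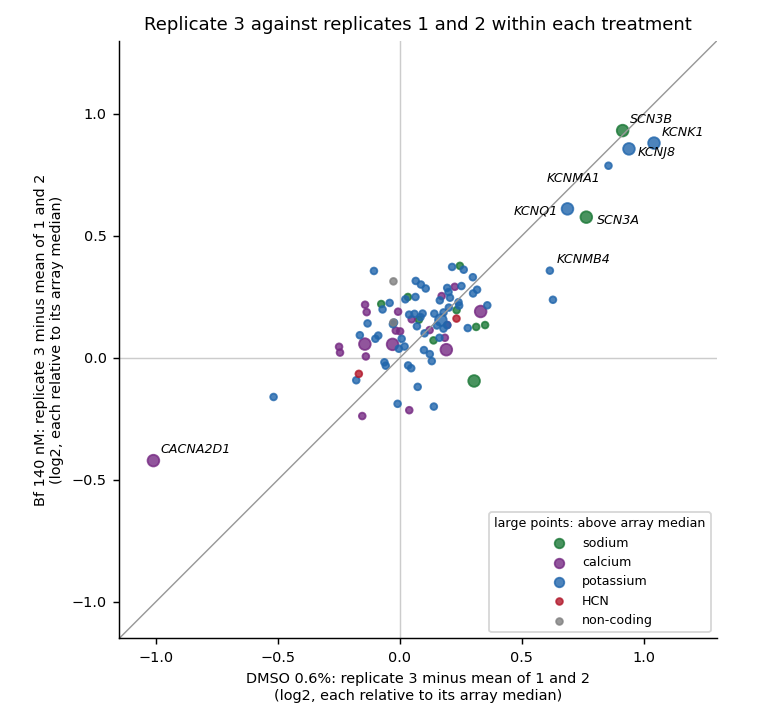
Replicate 3 minus the mean of replicates 1 and 2, each relative to its array median (log2), within Bf 140 nM (y axis) and within DMSO 0.6% (x axis) for the 99 members, coloured by class, with large points for members above the array median and a line where both are equal. SCN3B, KCNK1, KCNJ8, KCNMA1, SCN3A and KCNQ1 lie at the upper right and CACNA2D1 at the lower left.

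Probe sets of the same gene did not always tell the same story. Of the 31 members with several probe sets, CACNG4 had 2 that differed by 1.88 in mean level. The second read 10.73, 10.69 and 9.26 in Bf 140 nM, against 11.08, 10.62 and 9.12 in DMSO 0.6%, so its replicate 3 arrays differed from the others by -1.39 relative to the median, and those of the brighter probe set by -0.04. For KCNK1 the brighter probe set was 0.96 higher on replicate 3 and the second, at 0.51 above the median, was at -0.15. KCNQ1 likewise had 0.65 on one probe set and -0.19 on the other. Of the 3 probe sets of KCNMA1, the brightest had 0.82 and the others 0.14 and 0.23. In KCNJ8 (0.90 and 0.81) and SCN3B (0.92 and 0.76) both probe sets gave the replicate 3 difference alike.

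The widest gap in level was that of CACNA1G, whose 5 probe sets spanned 2.00 log2 from -0.13 to -2.13 around the median. KCNMA1, KCND3 and KCNK1 followed with spans of 1.53, 1.49 and 1.32. KCNH2 was bright on both of its probe sets, at 2.77 and 2.27, and CACNB3 on one, with 1.47 and 0.59. CACNA1I was the only gene with probe sets on both sides of the median. In all, 33 members were read on probe sets that by their suffix can detect more than one transcript or were designed with relaxed rules, among them CACNG4, KCNH2, CACNA2D2, SCN3A and KCNQ1. On the second probe set of bright genes the difference between Bf 140 nM and DMSO 0.6% was -0.04 for CACNG4, 0.02 for KCNK1, 0.04 for KCNJ8 and -0.06 for SCN3B.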

How the data were processed

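Total RNA of the 6 samples was labelled and hybridized to 1 Affymetrix human expression array each. The authors took cell intensities from GCOS, applied variance-stabilizing normalization in R 2.5.0 and deposited log2 values for each array. Near background this scale compresses differences. Base 2 was taken from the method; the summary of probes and the arrays normalized together are not given in the sources used here. The values hold all 22277 probe sets, so no filter by detection call was in place, and SAM was not repeated.

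Gene names came from the platform annotation, and all 99 members were found in the RefSeq table. Another 3 channel probe sets carrying several symbols were left out. The 22215 probe sets other than 62 controls were fitted with limma 3.58.1 (R 4.3.3), tested on simulated data, with Benjamini-Hochberg adjustment and a threshold of 0.10. The number of arrays, 3 for each group, limits the precision.

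The replicate numbers were taken to pair the arrays, although no label names a shared batch. Arrays of one number deviated together from the means of their groups, with r = 0.725, 0.783 and 0.880 for replicates 1, 2 and 3. Deviations within a group of 3 cancel out, so replicate 3 alone can raise r for replicates 1 and 2. Over all probe sets, the bilirubin and DMSO arrays correlated at 0.996 within replicate 1 and 0.998 within replicate 2. Across these 2 numbers the correlations were 0.995 and 0.993. The methods name no pairing, so the block is an alternative, beside normalization, filter, variance model, threshold, probe set choice and left-out arrays.

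Members, lists (noradrenergic, neuronal, mesenchymal, Schwann or glial, immune, endothelial, muscle, epithelial, other cation channels, partners, REST and corepressors) and tests were chosen with earlier results of these data known. Named genes were, in each subfamily, those well above the median and at least the 2 brightest, the 10 smallest p in each direction, up to 5 with both replicate 3 arrays furthest above or below the other 4, and the 5 with the widest span between probe sets. Other members are named as examples, chosen after their values were seen.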

Additional observations from a re-analysis of the deposited data

How the results depend on the processing

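No channel gene was called in any setting, and none of the 43 named genes in up to 13 settings came below an adjusted p of 0.969 in limma. The filter at the median level left out the named genes below it. Probe sets called over the whole array stayed at 0, except for 25 without both replicate 3 arrays and with the replicate block, none of them a channel gene. The block changed no other call. The count of 5 channel genes well above the median was 8 at 0.5 log2 (with KCNJ8, SCN3A and SCN3B), 3 at 2 log2, 3 on the mean over the probe sets of each gene and 3 on the lowest-mean probe set. It was between 5 and 6 with 1 array left out (SCN3A was added without DMSO 0.6% replicate 1), and 5 without both replicate 3 arrays. The median difference over channel genes lay between -0.03 and 0.03 with 1 array left out, and at -0.02 without both replicate 3 arrays.

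The sign of small differences turned in some settings, given here for the 43 named genes. With quantile normalization it turned for CACNA1G (-0.0037), CACNG1 (-0.0037), KCNAB2 (-0.0031) and KCNK1 (0.012). Without both replicate 3 arrays, with or without the block, it turned for 30 of all 99 members, and among the named genes for CACNA1G (-0.030), CACNA2D2 (0.0013), CACNA2D1 (-0.053), CACNB1 (-0.062), CACNG1 (-0.012), KCNN1 (-0.055), KCNJ8 (0.0088), KCNK1 (0.038), KCNF1 (-0.11), SCN9A (0.059) and SCN2B (-0.030). With 1 array left out, the signs of 23 named genes turned, over ranges of -0.17 to 0.033 (CACNA1B), -0.16 to 0.10 (CACNA1D), -0.052 to 0.071 (CACNA1G), -0.099 to 0.046 (CACNA1I), -0.25 to 0.53 (CACNA2D1), -0.14 to 0.055 (CACNA2D2), -0.048 to 0.15 (CACNB1), -0.030 to 0.069 (CACNB3), -0.026 to 0.075 (CACNG1), -0.13 to 0.16 (CACNG4), -0.17 to 0.066 (HCN2), -0.22 to 0.18 (KCNF1), -0.25 to 0.24 (KCNJ8), -0.32 to 0.27 (KCNK1), -0.039 to 0.15 (KCNK3), -0.091 to 0.32 (KCNMA1), -0.17 to 0.043 (KCNMB4), -0.083 to 0.12 (KCNN1), -0.12 to 0.19 (KCNQ1), -0.015 to 0.15 (SCN2B), -0.10 to 0.23 (SCN3A), -0.14 to 0.34 (SCN3B) and -0.21 to 0.065 (SCN9A). The causes were not tested. With 3 arrays in each group, small changes were not detectable, in dim or in bright members. Without the block, the median distance from the difference to either bound was 0.25 for the 87 members at or below the array median. It was 0.45 for the 12 members above it.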
